A study of Mus musculus with 5 samples.

Results

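The genes described here are 10 transcripts that follow the passage of an epithelial cell towards a mesenchymal state: the transcription factor genes Snai1, Snai2, Twist1, Zeb1, Zeb2 and Prrx1, the cadherin genes Cdh1 and Cdh2, the splicing regulator gene Esrp1 and the intermediate filament gene Vim. They are 10 of the 27998 genes in the count tables, were taken by name, and all 10 were found. They were read in 3 kinds of cells: mesenchymal tumour cells of late KIC (220 cells), epithelial-like cells (33 in late KIC, 60 in late KPC, 486 in late KPfC, 354 in early KIC and 9 in normal pancreas) and fibroblast-like cells (85, 102, 183, 1388 and 442 in the same order), out of 10718 cells kept over the 5 libraries. The mesenchymal tumour cells were taken by a rule: cells of late KIC outside the clusters of other cell types with at least 10 Vim molecules per 10000, with Areg or Npy seen, and with Dcn and Col3a1 each under 5 per 10000.

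The study dissociated mouse pancreas and counted transcripts cell by cell on the 10x Chromium platform, which tags each captured RNA molecule so that it is counted once, as a UMI. There is 1 library per group: late KIC at 60 days, late KPC at 6 months, late KPfC at 60 days, early KIC at 40 days and normal pancreas at 60 days. All mice were untreated, and the strain was a mix of C57BL/6 and FVB except in late KPfC, which is C57BL/6. The labels give the model names and no alleles or Cre drivers. As background, a Cre recombinase acting in pancreas cells alters tumour suppressor genes in these models, with loss of the Cdkn2a locus in KIC, loss of floxed Trp53 in KPfC and a point-mutant Trp53 in KPC.

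Epithelial-mesenchymal transition is the programme by which cells joined in a sheet give up their adherens junctions and become separate and motile. Factors of the Snail, Twist and Zeb families repress the E-cadherin gene Cdh1, and cells in transition often gain N-cadherin (Cdh2) and vimentin (Vim) and lose Esrp1, which keeps epithelial splice forms. Fibroblasts make many of the same transcripts by nature, so in a pancreatic tumour a factor has to be placed in tumour cells or in stroma before its level can be read.

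In the RefSeq promoter table of GRCm38.p6, entries were taken for 5 of the 10 genes. The 300 bases around the start, 250 before and 50 after it, are shown for a factor that leaned to fibroblasts (Snai1), a factor whose level in mesenchymal tumour cells was like that in fibroblasts (Twist1) and the filament gene that the rule for those cells used (Vim), all on the plus strand, at chr2:167537945-167538244, chr12:33957421-33957720 and chr2:13574061-13574360. Capitals mark CACCTG or its reverse complement CAGGTG, the E-box that Snail and Zeb factors bind.
Snai1: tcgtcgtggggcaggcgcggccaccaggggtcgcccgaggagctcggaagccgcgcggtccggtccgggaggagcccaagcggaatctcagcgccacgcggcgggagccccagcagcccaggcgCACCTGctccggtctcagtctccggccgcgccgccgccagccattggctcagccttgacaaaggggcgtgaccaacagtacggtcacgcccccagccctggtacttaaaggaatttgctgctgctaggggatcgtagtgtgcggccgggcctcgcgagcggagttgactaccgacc
Twist1: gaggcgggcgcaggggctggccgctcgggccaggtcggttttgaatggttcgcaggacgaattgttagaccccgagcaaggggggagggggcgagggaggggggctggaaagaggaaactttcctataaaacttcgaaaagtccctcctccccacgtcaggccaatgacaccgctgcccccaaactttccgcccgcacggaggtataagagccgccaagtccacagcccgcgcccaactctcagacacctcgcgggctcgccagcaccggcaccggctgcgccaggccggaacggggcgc
Vim: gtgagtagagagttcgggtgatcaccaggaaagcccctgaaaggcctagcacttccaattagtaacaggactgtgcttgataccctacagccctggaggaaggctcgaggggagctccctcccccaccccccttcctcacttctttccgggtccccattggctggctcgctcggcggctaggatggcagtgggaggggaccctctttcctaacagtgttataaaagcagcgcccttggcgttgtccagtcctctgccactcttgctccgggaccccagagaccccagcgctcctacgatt
Snai1 held 1 such E-box, 126 bases upstream of the start. In the windows of Twist1, Vim, Zeb2 and Prrx1 neither spelling was found. Of 32851 promoter windows of the same length, 20.2% held either spelling. A match describes letters and does not show a site in use.

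The libraries differed in depth. Late KIC had 836 kept cells with a median of 9331.5 UMIs, late KPC 1034 with 1957.5, late KPfC 2933 with 7592, early KIC 3529 with 1776 and normal pancreas 2386 with 4224.5. Barcodes present in more than 1 library numbered 62, of which 52 were among kept cells. Late KIC held 344 cells that had Xist but lacked Y-linked UMIs and 272 for which the reverse was true, so it holds cells of both sexes. In the same order the counts were 737 and 0 in late KPC, 0 and 1734 in late KPfC, 2925 and 1 in early KIC, and 658 and 123 in normal pancreas, which thus also holds both sexes. The design text speaks of 1 mouse for each group, and the labels do not say how many went into these 2 mixed libraries. With 1 library in a group no difference between groups could be tested. Intervals below are exact 95% Poisson, Clopper-Pearson or binomial intervals and cover counting error alone. A count of 0 allows up to 3 counts.

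The rule for mesenchymal tumour cells picked out 1 cluster. Of the 220 cells, 217 lay in cluster 15, which was named for no cell type because it rested on 2 markers, and 3 lay in an epithelial cluster. A further 29 late KIC cells of cluster 15 missed the rule and were kept out of all classes. The keratin transcripts Krt8 and Krt18, of the epithelial cytoskeleton, were at 3365 and 4711 UMIs per 1000000 (CPM) in mesenchymal tumour cells, at 3820 and 4772 CPM in epithelial-like cells and at 208.6 and 148 CPM in fibroblast-like cells of late KIC. Krt19, the keratin of pancreatic ducts, was at 775.5 CPM, 3345 CPM and 103 CPM in the same order. The adhesion gene Epcam was at 49.7 CPM, 1477 CPM and 10.8 CPM in that order. The 11 fibroblast markers summed to 95.9 CPM in mesenchymal tumour cells, with Pdgfrb at 0, against 28420 CPM in fibroblast-like cells. The 9 macrophage markers summed to 131.8 CPM, against 14510 CPM in macrophage-like cells. The cells thus had Krt8 and Krt18 near the epithelial-like level and Krt19 and Epcam below it. Their few fibroblast and macrophage transcripts were partly set by the rule. It capped the fibroblast markers Dcn and Col3a1 and left out clusters of other cell types. Vim, Areg and Npy were also used to choose the cells.

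Vim, which codes for vimentin, is given as a description because the rule used it. It was at 6209 CPM (6149 to 6268) in mesenchymal tumour cells, 315 CPM (262 to 375) in epithelial-like cells and 2643 CPM (2558 to 2730) in fibroblast-like cells of late KIC. Per cell the mesenchymal tumour cells ran from 13.6 through a median of 49.6 to 342 per 10000. The 3 cells nearest to the threshold from inside had 13.6, 14.7 and 16.1 per 10000. Outside it were 19 cells that met the other conditions, the nearest 3 with 7.96, 7.59 and 6.38 per 10000 and a median of 0.635.

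**Figure D1:**
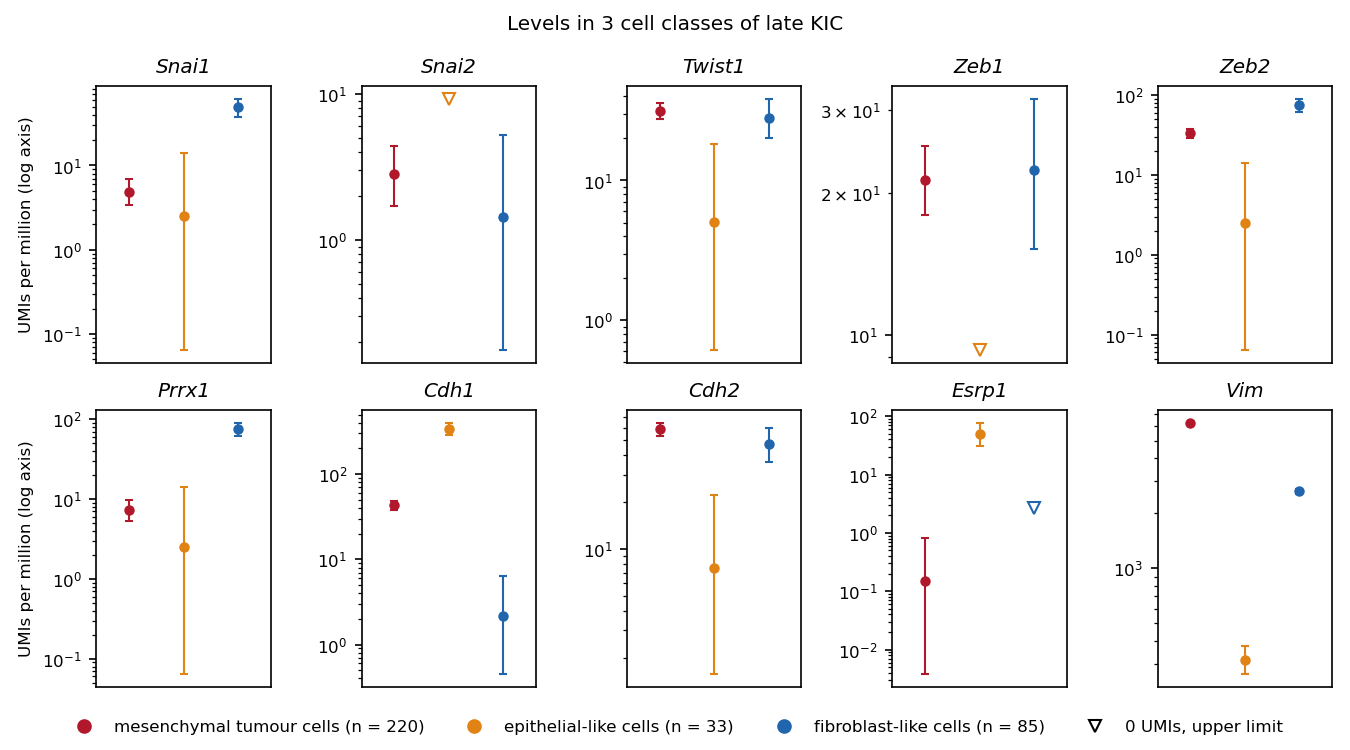
CPM (log axis) of the 10 genes in the mesenchymal tumour cells (red), epithelial-like cells (orange) and fibroblast-like cells (blue) of late KIC, 1 panel a gene, with exact 95% Poisson intervals. Cdh1 and Esrp1 are highest in epithelial-like cells at 340 and 50.3 CPM, Snai1 and Prrx1 in fibroblast-like cells at 49.1 and 75.1 CPM, and the intervals of Twist1 and Zeb1 overlap between mesenchymal tumour cells and fibroblast-like cells.

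Mesenchymal tumour cells were set against the epithelial-like cells of the same library to ask which of the genes differ between the 2 tumour states. Of the 10 genes, 9 had at least 20 UMIs over both classes. Among these 9, 6 were at least 2-fold higher (Twist1, Zeb1, Zeb2, Prrx1, Cdh2 and Vim), 2 were at least 2-fold lower (Cdh1 and Esrp1) and Snai1 lay between. Over 10340 genes the same 2-fold limit was passed upwards by 11.3% and downwards by 12.7%. The median log2 ratio of the 9 was 1.53, with Zeb1 at its bound, beside -0.0052 over all genes. Vim is among the 6 although the rule used it, and the 6 genes Snai1, Twist1, Zeb1, Zeb2, Prrx1 and Cdh2 had 0 to 3 UMIs in epithelial-like cells and so passed the minimum through the mesenchymal tumour cells. Esrp1, with 1 UMI in mesenchymal tumour cells, passed the minimum through the epithelial-like cells. Neither the count nor the median is therefore read as support. The cells were clustered on their own transcripts, although these 10 genes and the wider lists below were left out of the genes used for clustering, so class differences are descriptions. Counting the 29 cells of cluster 15 that missed the rule as epithelial-like, an alternative added after seeing the data, turned Twist1 and Zeb2 round to log2 ratios of -0.47 and -0.44, and clustering late KIC on its own did so too, at -0.69 and -0.52. Under the same alternatives, in that order, Cdh2 came to 0.43 and 0.88 and Prrx1 to 0.63 and 0.32, all under 2-fold, and Zeb1 to 1.60 and 0.90.

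Among the factors, Zeb2, a zinc finger repressor of Cdh1, was at 33.1 CPM (28.9 to 37.8, 223 UMIs) in mesenchymal tumour cells and 2.52 CPM (0.0637 to 14.02, 1 UMI) in epithelial-like cells. The ratio was 13.2-fold with an interval of 2.34 to 522. Its relative Zeb1 had 144 UMIs (21.4 CPM, 18.0 to 25.2) in mesenchymal tumour cells and 0 UMIs in epithelial-like cells, which allows up to 7.55 CPM there. Zeb1 was thus at least 2.83-fold higher, counting 3 UMIs for the class at 0.

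Twist1, a basic helix-loop-helix factor of mesoderm, was at 31.5 CPM (27.4 to 36.0, 212 UMIs) in mesenchymal tumour cells and 5.03 CPM (0.610 to 18.2, 2 UMIs) in epithelial-like cells, a ratio of 6.25-fold (1.71 to 52.0). Prrx1, a homeobox factor of limb and fibroblast mesenchyme, was at 7.28 CPM (49 UMIs) and 2.52 CPM (1 UMI) in that order. Its 2.89-fold ratio had an interval of 0.495 to 116 and so includes no difference. The same was true of Snai1, the Snail factor, at 4.90 CPM (33 UMIs) in mesenchymal tumour cells and 2.52 CPM (1 UMI) in epithelial-like cells, a ratio of 1.95-fold (0.326 to 79.2). Snai2, the Slug factor, had 19 UMIs (2.82 CPM) in mesenchymal tumour cells and 0 UMIs in epithelial-like cells and was too sparse to compare.

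The cadherins ran in opposite directions. Cdh2, which codes for N-cadherin, was at 58.8 CPM (53.1 to 64.9) in mesenchymal tumour cells and 7.55 CPM (1.56 to 22.1, 3 UMIs) in epithelial-like cells, 7.79-fold higher (2.65 to 37.9). Cdh1, which codes for E-cadherin, was at 43.1 CPM (38.2 to 48.3) in mesenchymal tumour cells and 340 CPM (285 to 402) in epithelial-like cells, 7.89-fold lower (6.39 to 9.71). Cdh1 was lower but not at the fibroblast level of 2.17 CPM.

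Esrp1 had 1 UMI among 6735195 in the mesenchymal tumour cells and 20 UMIs among 397350 in the epithelial-like cells. That is 0.148 CPM (0.00376 to 0.827) against 50.3 CPM (30.7 to 77.7), 339-fold lower with an interval of 54.2 to 14050. This was the largest ratio of the 9 genes, but Esrp1 passed the minimum through the epithelial-like cells, so its rank is not read as support. Fibroblast-like cells of late KIC had 0 UMIs of Esrp1, which allows up to 2.17 CPM, so mesenchymal tumour and fibroblast-like cells could not be ranked for it. A Gm26663 gene overlaps Esrp1 on the other strand, and Zeb1, Zeb2, Prrx1 and Cdh2 also share sequence with annotated genes. The sources used here do not say whether counting used strand, so the counts of these 5 genes may hold reads of a neighbour.

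**Figure D2:**
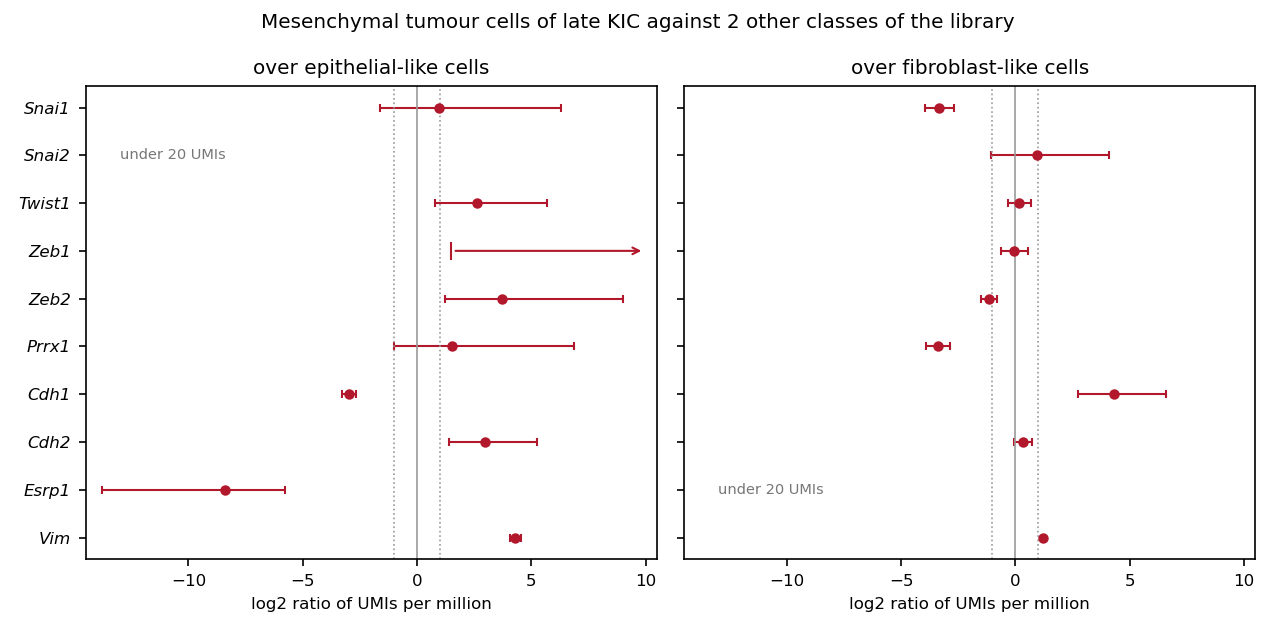
Log2 ratio of CPM in mesenchymal tumour cells over epithelial-like cells (left) and over fibroblast-like cells (right) of late KIC, with exact 95% binomial intervals given the summed counts. Dotted lines mark 2-fold, the arrow marks the Zeb1 bound of 2.83-fold, and Cdh1 lies left of 0 against epithelial-like cells and right of 0 against fibroblast-like cells.

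Mesenchymal tumour cells were next set against the fibroblast-like cells of late KIC, to place each factor in tumour cells or in stroma. Of the 10 genes, 9 had at least 20 UMIs over both classes: 2 were at least 2-fold higher (Cdh1 and Vim), 3 at least 2-fold lower (Snai1, Zeb2 and Prrx1) and 4 lay between (Snai2, Twist1, Zeb1 and Cdh2). Over 10878 genes the limit was passed upwards by 18.3% and downwards by 13.7%. The median log2 ratio of the 9 was 0.16, beside 0.19 over all genes. Vim is among the 2 higher although the rule used it, so neither the counts nor the median is read as support.

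Twist1 and Zeb1 differed between the tumour cells and the stroma by less than counting error. Twist1 was at 31.5 CPM in mesenchymal tumour cells and 28.1 CPM (20.02 to 38.5) in fibroblast-like cells, a ratio of 1.12-fold (0.792 to 1.62). Zeb1 was at 21.4 CPM and 22.4 CPM (15.2 to 31.8) in that order, 1.05-fold lower with an interval of 0.686 to 1.55. Cdh2 was at 58.8 CPM in mesenchymal tumour cells and 46.9 CPM (36.2 to 59.8) in fibroblast-like cells, a ratio of 1.25-fold (0.962 to 1.66). These intervals bound the difference and do not show equality. Of the fibroblast-like cells of late KIC, 36 of 85 lay in a cluster whose highest score was that of mesothelial markers, and they had 76.7 CPM (55.2 to 103.6) of Cdh2. Without them, an alternative added after seeing the data, Cdh2 was at 27.4 CPM (17.4 to 41.2) in fibroblast-like cells, and the log2 ratio of 1.10 passed the 2-fold limit. Clustering late KIC on its own gave 1.88. Twist1 and Zeb1 were at log2 ratios of 0.33 and -0.30 without those cells. Snai2 lay close to the limit at 0.97 and ran from 0.24 to 1.21 over the alternatives.

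Snai1 and Prrx1 leaned to the stroma. Snai1 was at 4.90 CPM (3.37 to 6.88) in mesenchymal tumour cells and 49.1 CPM (38.1 to 62.2) in fibroblast-like cells, 10.0-fold lower (6.52 to 15.7). Prrx1 was at 7.28 CPM (5.38 to 9.62) and 75.1 CPM (61.3 to 91.0) in that order, 10.3-fold lower (7.28 to 14.8). Zeb2 was at 33.1 CPM in mesenchymal tumour cells and 74.3 CPM (60.7 to 90.2) in fibroblast-like cells, 2.25-fold lower (1.76 to 2.85).

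Cdh1 was 19.9-fold higher (6.74 to 97.0) in mesenchymal tumour cells than in fibroblast-like cells, where 3 UMIs were seen. Macrophage-like cells of late KIC had 34.3 CPM (27.4 to 42.5) of Cdh1, and their interval overlaps that of the mesenchymal tumour cells. The macrophage markers in mesenchymal tumour cells were at 0.908% of their level in macrophage-like cells, while Cdh1 was at 126% of its level there.

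The same reading against stroma and macrophages can be made for 5 of the factors. Snai2 was left out, with 2 UMIs in fibroblast-like and 0 in macrophage-like cells of late KIC. In mesenchymal tumour cells the fibroblast markers were at 0.338% of their level in the fibroblast-like cells of late KIC. Snai1 was at 9.98%, Prrx1 at 9.69%, Zeb2 at 44.5%, Zeb1 at 95.6% and Twist1 at 112% of their fibroblast-like level. Zeb2 was at 11.0% of its level in macrophage-like cells (301 CPM) and Snai1 at 63.1% (7.76 CPM), while Zeb1, Twist1 and Prrx1 stood above theirs. Each of the 5 factors stood at a larger share of its fibroblast-like level than the fibroblast markers did. Those markers include Dcn and Col3a1, which the rule capped, and the rule left out fibroblast clusters. Their share was thus low in part by the choice of cells, and the comparison is not read as support. The part of stromal or macrophage RNA in these levels was not tested.

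The late KIC cells were also split by the sex transcripts they carried. Mesenchymal tumour cells with Xist and no Y-linked UMI (119 cells) had 21.8 CPM (17.1 to 27.3) of Zeb2 and the 66 cells in which Y-linked UMIs but no Xist were seen had 48.2 CPM (39.6 to 58.1). Against fibroblast-like cells of the same kind the log2 ratio of Zeb2 was -1.88 with Xist and -0.63 with Y-linked UMIs, so its 2-fold call held in the cells with Xist alone. Prrx1 was at 7.35 CPM (4.76 to 10.9) in the cells with Xist and 1.75 CPM (0.477 to 4.49, 4 UMIs) in those with Y-linked UMIs. All 4 of those UMIs came from 1 cell, which the interval does not take into account. Cdh1 was at 52.6 CPM (45.2 to 60.9) and 27.6 CPM (21.2 to 35.3) in that order. Twist1 (30.9 and 30.7 CPM), Zeb1 (18.8 and 21.0 CPM) and Cdh2 (55.6 and 62.2 CPM) were close. A further 19 mesenchymal tumour cells had both Xist and Y-linked UMIs, at a median depth of 36660 UMIs. They held 16 UMIs of Prrx1 in 3 cells (19.5 CPM). Of these 19 cells 73.7% had a Cdh1 UMI and 84.2% a Cdh2 UMI. Whether they are doublets was not tested. How many mice stand behind each kind is not in the labels.

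Shares of cells with a UMI depend on depth, and the mesenchymal tumour cells were deep, with a median of 25800 UMIs against 9265 in epithelial-like, 14710 in fibroblast-like and 7256 in macrophage-like cells of late KIC. As sequenced, 52.3% of the 220 cells had a Zeb2 UMI, 42.7% a Twist1 UMI, 39.5% a Zeb1 UMI, 9.09% a Prrx1 UMI, 8.64% a Snai1 UMI and 7.73% a Snai2 UMI. For comparison each cell was thinned to 5000 UMIs, which left out 2 mesenchymal tumour cells and 3 fibroblast-like cells. Twist1 was then seen in 11.0% (7.18 to 15.9) of mesenchymal tumour cells, 14.6% (7.80 to 24.2) of fibroblast-like cells and 0.391% (0.00989 to 2.16) of macrophage-like cells, a class that should lack it.

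At that depth Zeb1 was seen in 10.6% (6.81 to 15.4) of mesenchymal tumour cells and 3.91% (1.89 to 7.07) of macrophage-like cells. Zeb2 was seen in 15.1% of mesenchymal tumour cells and 72.3% of macrophage-like cells, which express it. Cdh2 was seen in 22.9% of mesenchymal tumour cells, 22.0% of fibroblast-like cells and 1.17% of macrophage-like cells. Cdh1 was seen in 19.7% (14.7 to 25.6) of mesenchymal tumour cells and 1.22% (0.0309 to 6.61) of fibroblast-like cells. Too few epithelial-like cells of late KIC were this deep for a share.

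**Figure D3:**
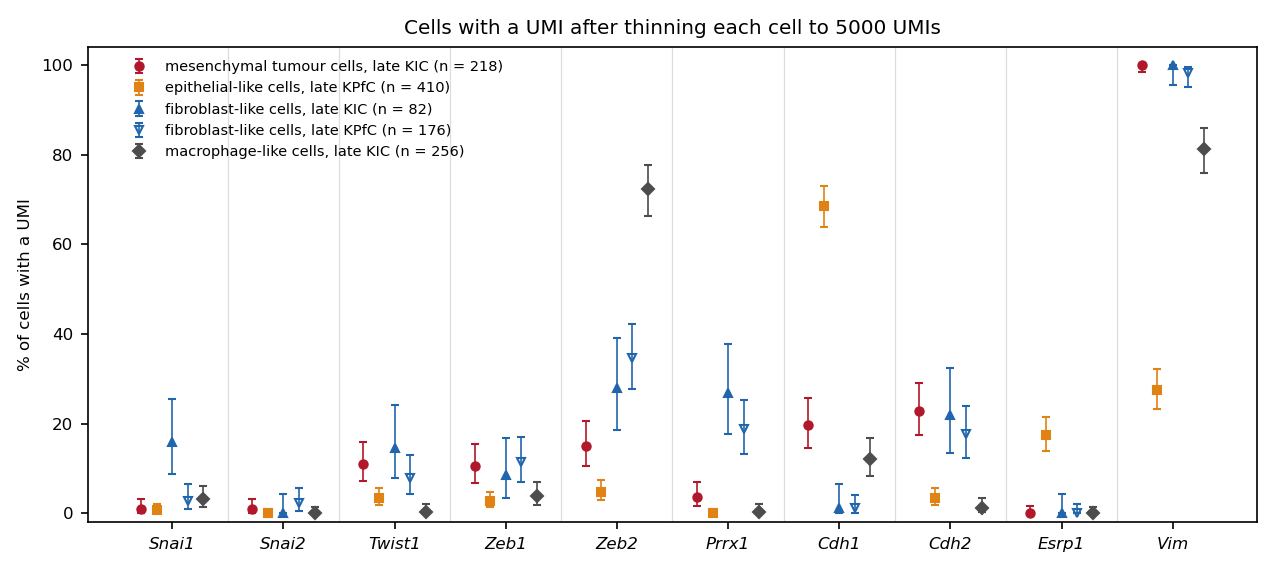
Percent of cells with a UMI of each gene after thinning each cell to 5000 UMIs, with Clopper-Pearson 95% intervals, in mesenchymal tumour cells of late KIC, epithelial-like cells of late KPfC, fibroblast-like cells of both libraries and macrophage-like cells of late KIC. Cdh1 is seen in 68.5% of epithelial-like cells and 19.7% of mesenchymal tumour cells, Zeb2 is highest in macrophage-like cells at 72.3%, and Prrx1 in fibroblast-like cells at 26.8%.

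Within the mesenchymal tumour cells several factors were often seen together. Of 220 cells, 166 (75.5%) had a UMI of Twist1, Zeb1 or Zeb2, and 46 had none of the 6 factors. The 46 cells had a median of 11175 UMIs, against 38961 in the 39 cells with 3 factors, so the number of factors seen moved with depth. Zeb1 and Zeb2 were both seen in 58 cells, Twist1 and Zeb2 in 60 and Twist1 and Zeb1 in 44. E-cadherin and N-cadherin transcripts were in the same cell in 76 cells, which is 73.1% of the 104 cells with Cdh1 and 53.2% of the 143 with Cdh2. Doublets were not removed, and whether cells with both cadherins include any was not tested.

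The wider genes of the programme were read from 5 lists. In mesenchymal tumour cells over epithelial-like cells, 2 of 6 measured other EMT factors passed the 2-fold limit upwards and 0 downwards. Their median log2 ratio was 0.51. Over 10340 genes 11.3% passed the limit upwards and 12.7% downwards, with a median of -0.0052. Hmga2, a chromatin factor of embryonic cells, was at 567 CPM in mesenchymal tumour cells, 65.4 CPM in epithelial-like cells and 9.38 CPM in fibroblast-like cells. Prrx2, the paralog of Prrx1, was at 149.7 CPM, 17.6 CPM and 65.0 CPM in the same order. Prrx2 thus stood higher in mesenchymal tumour cells than in fibroblast-like cells, the reverse of Prrx1.

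Of the epithelial-state regulators, 4 of 4 measured were at least 2-fold lower in mesenchymal tumour cells than in epithelial-like cells, with a median log2 ratio of -3.60. Over all 10340 genes 12.7% were that much lower, and the median was -0.0052. Ehf, an ETS factor of epithelia, was at 3.12 CPM in mesenchymal tumour cells and 103 CPM in epithelial-like cells. Elf3, its close relative, was at 4.31 CPM and 136 CPM in that order. Esrp2, the paralog of Esrp1, was at 4.31 CPM and 20.1 CPM, and the zinc finger factor Klf5 at 31.3 CPM and 93.1 CPM.

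Of the other cadherins, 1 of 5 measured was higher than in epithelial-like cells and 0 lower, beside 11.3% and 12.7% of all genes. Their median log2 ratio was 0.21, beside -0.0052 over all genes. Cdh6, a kidney and embryonic cadherin, was at 15.7 CPM (106 UMIs) in mesenchymal tumour cells and 2.52 CPM (1 UMI) in epithelial-like cells, a log2 ratio of 2.65 (0.14 to 7.96). The catenins, which tie cadherins to actin, lay within 2-fold of epithelial-like cells in 4 of 4 cases, with a median of -0.63, and 4 of 4 were at least 2-fold higher than in fibroblast-like cells, a limit that 18.3% of all genes passed upwards and 13.7% downwards. Of the mesenchymal effectors, 8 of 12 were higher than in epithelial-like cells and 0 lower, with a median of 1.15. The all-gene shares and median for this are those given with the other cadherins. Against fibroblast-like cells 3 of the 12 were higher and 4 lower, beside 18.3% and 13.7% of all genes. Their median was -0.68, beside 0.19 over all genes. The receptor kinase gene Axl was at 267 CPM in mesenchymal tumour cells and 10.1 CPM in epithelial-like cells. S100a4, a calcium-binding protein gene of motile cells, was at 339 CPM in mesenchymal tumour cells and 55.4 CPM in epithelial-like cells. The lists hold low genes that passed the minimum through the class where they are high.

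Epithelial-like cells were then compared between models. Between late KIC and late KPfC, both at 60 days, 7 of the 10 genes had enough UMIs; 0 were at least 2-fold higher in late KIC, 1 (Zeb2) was lower and 6 lay between, beside 6.89% higher and 10.6% lower of 10818 genes. The median log2 ratio of the 7 was 0.00 beside -0.016 over all genes. This median is the value of Zeb1, which was set to equality and is not a measured ratio. Zeb1 had 0 UMIs in late KIC against 39 UMIs (6.04 CPM) in late KPfC. Its interval reached up to 1.61-fold higher and had no lower limit, so its place among the 6 is not a measured one. Zeb2 rested on 1 UMI in late KIC (2.52 CPM) against 95 UMIs in late KPfC (14.7 CPM), 5.84-fold lower with an interval of 1.02 to 233. The direction turned, to a log2 ratio of 1.47, when the 29 cells of cluster 15 that missed the rule were counted as epithelial-like, and to 1.49 with each library clustered on its own. Cdh1 was at 340 CPM in late KIC and 294 CPM (281 to 307) in late KPfC, and Esrp1 at 50.3 CPM and 39.3 CPM (34.6 to 44.5) in that order. Strain and sex transcripts differ between these 2 libraries and cannot be told apart from the model.

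Zeb2 in epithelial-like cells was also read beside macrophage transcripts. The macrophage markers summed to 773 CPM in the epithelial-like cells of late KPfC, with 9 of 9 seen, against 159 CPM with 6 of 9 seen in those of late KIC. In late KPfC these markers were at 3.69% of their level in macrophage-like cells and Zeb2 was at 3.55% of its level there (414 CPM). The 2 shares were 1.09% and 0.835% in late KIC, 1.05% and 5.35% in late KPC, and 2.19% and 4.74% in early KIC. The part of macrophage RNA in the Zeb2 level was not tested. Twist1 was at 8.05 CPM (6.01 to 10.6) in these epithelial-like cells and at 0.141 CPM (2 UMIs) in macrophage-like cells.

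Between late KPC and late KPfC 7 genes had enough UMIs, of which Twist1 alone passed the limit, upwards, and 6 lay between, beside 13.7% higher and 9.50% lower of 10831 genes. Their median log2 ratio was 0.21 beside 0.11 over all genes. Twist1 was at 22.7 CPM (9.80 to 44.7, 8 UMIs, in 6.67% of 60 cells) in late KPC and 8.05 CPM in late KPfC, 2.82-fold higher (1.16 to 5.98). Without the cells that meet the rule for mesenchymal cells, 1 in late KPC and 18 in late KPfC, the log2 ratio was 0.91 and no gene was 2-fold apart. Cdh1 was at 286 CPM (233 to 348) in late KPC and 294 CPM in late KPfC, 1.03-fold lower with an interval of 0.839 to 1.27. Age and strain differ between these libraries, and so do the sex transcripts, with Xist in late KPC and Y-linked UMIs in late KPfC.

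Between late and early KIC only 3 genes had enough UMIs, and 0 of them were 2-fold apart in either direction, beside 9.51% higher and 24.8% lower of 7043 genes. Cdh1 was at 340 CPM in late KIC and 346 CPM (308 to 388) in early KIC, Esrp1 at 50.3 CPM and 37.6 CPM (25.9 to 52.8), and Vim at 315 CPM and 302 CPM (267 to 341). Vim did not keep this: its log2 ratio was 0.06 as given, 1.18 after thinning to 1000 UMIs, 2.84 with each library clustered on its own and 3.10 with the 29 cells counted as epithelial-like. Cdh1 was at -1.03 in the last of these, past the limit downwards. Most late cells lay in cluster 4 and most early ones in cluster 10, which also held the 9 epithelial-like cells of normal pancreas. Msln was at 571 CPM in the late cells and 6.83 CPM in the early ones. Areg was at 198.8 and 10.25 CPM and Npy at 266.8 and 0 CPM in that order. Whether the early cells are tumour cells was not tested. Acinar markers summed to 543.6 CPM in the late epithelial-like cells and 24770 CPM in the early ones, beside 22170 CPM in fibroblast-like and 26330 CPM in macrophage-like cells of early KIC. Twist1 had 2 UMIs in late KIC and 1 UMI in early KIC, and Prrx1 had 1 UMI in each.

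**Figure D4:**
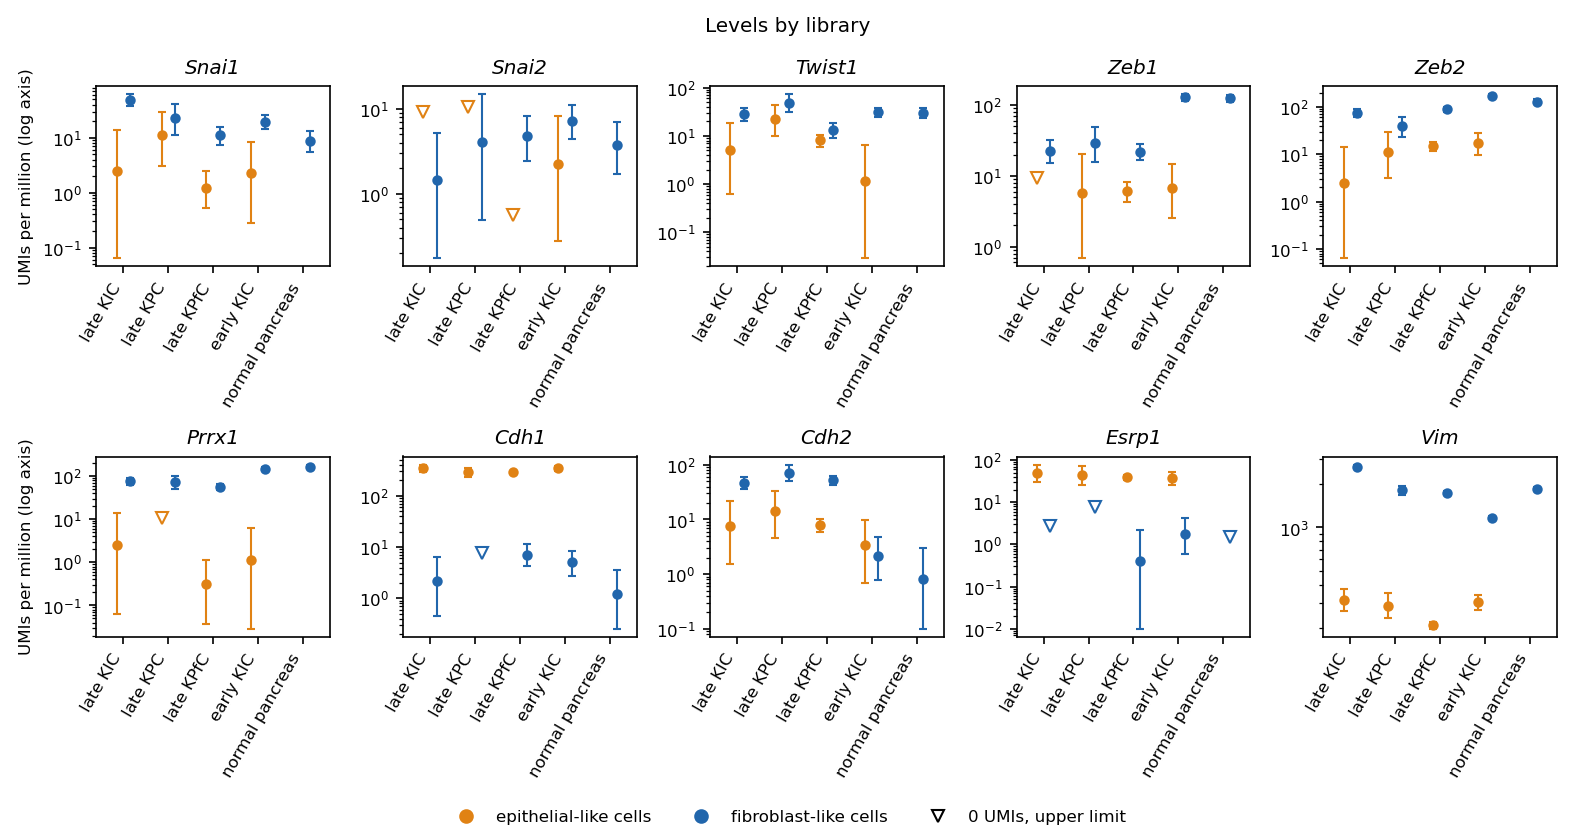
CPM (log axis) of the 10 genes in epithelial-like cells (orange) and fibroblast-like cells (blue) by library, for classes of at least 30 cells, with exact 95% Poisson intervals and open triangles at the upper limit of a count of 0. Cdh1 stays between 286 and 346 CPM in epithelial-like cells, and Cdh2 in fibroblast-like cells is between 46.9 and 72.2 CPM in the late libraries and at 2.18 and 0.831 CPM in early KIC and normal pancreas.

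Late KPfC has the most tumour cells for asking which factors are in epithelial-like cells and not in fibroblasts alone. Of its 183 fibroblast-like cells, 160 lay in cluster 12, whose highest score was that of mesothelial markers. The other 23 were too few for a ratio, so the fibroblast-like levels here are mostly those of mesothelial-scoring cells. Of the 10 genes 9 had enough UMIs: 2 (Cdh1 and Esrp1) were at least 2-fold higher in epithelial-like than in fibroblast-like cells, 6 were at least 2-fold lower and Twist1 lay between, beside 18.1% higher and 16.1% lower of 11794 genes. The median log2 ratio of the 9 was -2.59 beside 0.13 over all genes. Snai1 and Prrx1 passed the minimum through the fibroblast-like cells, and Cdh1 and Esrp1 through the epithelial-like cells. Neither the counts nor the median is therefore read as support. Twist1 was at 8.05 CPM in epithelial-like cells and 13.0 CPM (8.97 to 18.3) in fibroblast-like cells, 1.62-fold lower (1.01 to 2.55). Zeb1 was at 6.04 CPM (4.29 to 8.25) and 22.1 CPM (16.7 to 28.7) in that order, 3.66-fold lower. In macrophage-like cells Zeb1 was at 4.58 CPM (3.54 to 5.84), which overlaps its epithelial-like interval.

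Prrx1 was the factor that differed most between fibroblast-like cells, most of them mesothelial-scoring, and epithelial-like cells of late KPfC. Levels of Prrx1 and Zeb1 in the fibroblast-like cells without cluster 12 were higher and are given below. It had 2 UMIs (0.309 CPM) in epithelial-like cells and 142 UMIs (56.1 CPM) in fibroblast-like cells, 181-fold lower with an interval of 49.2 to 1511. That is 0.552% of its fibroblast-like level, where the fibroblast markers were at 0.664% of theirs. Twist1 stood at 61.8% of its fibroblast-like level, Zeb1 at 27.3%, Cdh2 at 15.1% and Snai1 at 11.2%. Snai2 had 0 UMIs in the 486 epithelial-like cells, which allows up to 0.464 CPM and up to 0.617% of cells with a Snai2 UMI, against 12 UMIs (4.74 CPM) in fibroblast-like cells.

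Twist1, Zeb1 and Zeb2 stood higher in a few of the late KPfC epithelial-like cells. Of the 486 cells, 18 met the rule used for mesenchymal cells in late KIC. These 18 cells had 27.9 CPM of Twist1, 39.1 CPM of Zeb1, 61.4 CPM of Zeb2 and 145 CPM of Cdh1, against 6.88, 4.10, 12.0 and 302 CPM in the other 468. Vim, which chose them, was at 2310 CPM and 85.4 CPM. The levels of the 18 cells are given without intervals. Macrophage-like cells of late KPfC had 1051 CPM of Areg, 924.5 CPM of Vim and 414 CPM of Zeb2. They had 4.58 CPM of Zeb1 and 0.141 CPM of Twist1. Whether the 18 cells include doublets with macrophages was not tested. After thinning to 5000 UMIs, Twist1 was seen in 3.42% (1.88 to 5.66) of epithelial-like cells of late KPfC, 7.96% of its fibroblast-like cells and 0.0727% of its macrophage-like cells (8.44%, 15.8% and 0.114% before thinning, at median depths of 10810, 12030 and 7750 UMIs).

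In the smaller libraries the epithelial-like cells gave few UMIs of any factor. Snai1 had 4 UMIs (11.3 CPM) in late KPC and 2 UMIs (2.28 CPM) in early KIC, and Zeb1 had 2 (5.67 CPM) and 6 (6.83 CPM). Zeb2 had 4 UMIs (11.3 CPM) in late KPC and 15 (17.1 CPM) in early KIC. Cdh2 had 5 UMIs (14.2 CPM) in late KPC and 3 (3.42 CPM) in early KIC. The epithelial-like cells of normal pancreas numbered 9 and gave 0 UMIs of the 6 factors and of Cdh2, which at their depth allows up to 65.4 CPM of each.

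Fibroblast-like cells had at least 2 UMIs of each of the 6 factors in each of the 5 libraries. Prrx1 was at 75.1 CPM in late KIC, 72.2 CPM (50.3 to 100) in late KPC, 56.1 CPM (47.2 to 66.1) in late KPfC, 146 CPM (132 to 161) in early KIC and 167 CPM (151 to 184) in normal pancreas. Zeb1 was at 22.4, 28.9, 22.1, 129 and 126 CPM in the same order. The intervals of the late libraries do not overlap those of early KIC and normal pancreas for either gene, which for Prrx1 did not hold without the mesothelial-scoring cells described next.

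Cdh2 ran the other way in the fibroblast-like cells, with 46.9 CPM in late KIC, 72.2 CPM (50.3 to 100) in late KPC, 52.1 CPM (43.6 to 61.8) in late KPfC, 2.18 CPM (0.799 to 4.74) in early KIC and 0.831 CPM (0.101 to 3.0) in normal pancreas. Cluster 12, whose highest score was that of mesothelial markers, held 36 of 85 fibroblast-like cells in late KIC, 50 of 102 in late KPC and 160 of 183 in late KPfC, against 36 of 1388 in early KIC and 45 of 442 in normal pancreas. Without it Cdh2 was at 27.4, 35.3 and 63.8 CPM in the late libraries and at 2.27 and 0.943 CPM in early KIC and normal pancreas. Zeb1 without it was at 26.3, 49.4, 33.4, 133 and 138 CPM. Prrx1 without it was at 111 CPM (89.6 to 136) in late KIC, 148 CPM (91.8 to 227) in late KPC, 124.5 CPM (89.3 to 169) in late KPfC, 152 CPM (137 to 167) in early KIC and 188 CPM (170.1 to 207.5) in normal pancreas. The intervals of late KPC and late KPfC then overlapped that of early KIC, and that of late KPC also that of normal pancreas. Other clusters hold most of the class in early KIC (clusters 1 and 5) and normal pancreas (clusters 18 and 5) than in the late libraries, and depth differs too.

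Between early KIC and normal pancreas, 7 of the 10 genes had enough UMIs in fibroblast-like cells; Snai1 alone passed the limit, upwards in early KIC, and 6 lay between, beside 7.34% higher and 5.37% lower of 10235 genes. Their median log2 ratio was 0.042 beside -0.028 over all genes. Snai1 was at 19.6 CPM (14.7 to 25.6) in early KIC and 8.72 CPM (5.40 to 13.3) in normal pancreas, 2.25-fold higher (1.34 to 3.92). Twist1 was at 31.2 CPM and 30.3 CPM in that order, a ratio of 1.03-fold (0.745 to 1.43).

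Between late KIC and late KPfC, 8 genes had enough UMIs in fibroblast-like cells; 2 (Snai1 and Twist1) were at least 2-fold higher in late KIC, 1 (Cdh1, on 3 UMIs) was lower and 5 lay between, beside 5.18% higher and 12.9% lower of 9575 genes. Their median log2 ratio was 0.22 beside -0.16 over all genes. Snai1 was at 49.1 CPM in late KIC and 11.1 CPM (7.35 to 16.0) in late KPfC, 4.44-fold higher (2.82 to 7.16). Twist1 was at 28.1 CPM and 13.0 CPM in that order, 2.16-fold higher (1.32 to 3.54). The mesothelial-scoring cluster held 36 of 85 of these cells in late KIC and 160 of 183 in late KPfC. In the remaining 49 and 23 cells Snai1 was at 62.1 CPM (46.4 to 81.4) in late KIC and 27.3 CPM (12.5 to 51.9, 9 UMIs) in late KPfC. Twist1 was at 25.1 CPM (15.5 to 38.3) in late KIC and 18.2 CPM (6 UMIs) in late KPfC, less than 2-fold apart, and the intervals overlapped for both genes. Among all classes of at least 30 cells the next level of Snai1 was 48.0 CPM in endothelial-like cells of early KIC, on 17 UMIs, which does not differ beyond counting error.

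Outside tumour and stroma the factors had other homes. Zeb2 was highest in macrophage-like cells, at 465 CPM in normal pancreas and 414 CPM in late KPfC, and Zeb1 in T or NK-like cells, at 199 CPM in late KPC and 190.4 CPM in normal pancreas. Snai2 was highest in endothelial-like cells of early KIC, at 22.6 CPM on 8 UMIs. Cdh2 was also in endocrine-like cells of early KIC, at 53.8 CPM.

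The genes whose levels ran most like each member were found over 34 class and library pairs of at least 30 cells, by Pearson's r of log2(CPM + 10) among 11096 genes; the pairs share libraries and depths, and no test was made. For Prrx1 they were Serpinf1 (r = 0.98), Vgll3 (0.97) and Adamts2 (0.97). For Twist1 they were Scarf2 (0.96), Fzd2 (0.94) and Angptl2 (0.93). For Esrp1 they were Arhgef16 (0.95), Epb41l4b (0.95) and Rab25 (0.94), and for Cdh1 Galnt3 (0.92), Cldn6 (0.92) and Fxyd3 (0.91).

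For Cdh2 the nearest were Ncam1 (0.91), Ptprn (0.88) and Gpr39 (0.87). For Zeb2 they were Sirpa (0.91), Emilin2 (0.91) and Hexa (0.90), and for Vim Npc2 (0.90), Emp3 (0.90) and Tubb6 (0.88). Zeb1 had looser neighbours in Fyn (0.80), Flt3l (0.77) and Stat5b (0.76), as had Snai1 in Tspan18 (0.84), Id4 (0.81) and Csf1 (0.81). For Snai2, whose highest level was 22.6 CPM, they were Fgd5 (0.93), Synm (0.92) and Tmem204 (0.92).

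The members lie on 7 chromosomes of GRCm38. Snai1 spans chr2:167538195-167542814, Zeb2 chr2:44983632-45117395 and Vim chr2:13573927-13582826. Snai2 spans chr16:14705852-14709385, Twist1 chr12:33957671-33959829, Prrx1 chr1:163245119-163313710, Cdh1 chr8:106603351-106670246 and Esrp1 chr4:11331933-11386783. Zeb1 and Cdh2 lie on chromosome 18, at chr18:5591860-5775467 and chr18:16588877-16809246.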

How the data were processed

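Per the labels' protocols, 10x 3' v2 libraries were made from single-cell suspensions; per the submitters' processing notes, Cell Ranger 2.1.1 and GRCm38 were used. The deposited tables hold whole UMI counts per gene and barcode, as the authors made them. Members, gene lists and comparisons were chosen with earlier results of these data known, and 5 alternatives, beside 16 others, after seeing the cell classes. Cells had at least 200 genes, 500 UMIs and at most 20% mitochondrial UMIs. They were clustered with scanpy 1.11.5 (2000 variable genes without the members and wider lists, 30 components, 15 neighbours, Leiden resolution 1) in Python 3.11.15, and clusters were named from 105 markers, of which 4 are not in the tables. Doublets were not removed. UMIs were summed per class and library. A gene counted as apart at 2-fold or more, with at least 20 UMIs over both sides. Of the wider lists (47 genes), up to 6 genes a direction were named by the size of the ratio between mesenchymal tumour and epithelial-like cells of late KIC; 1 gene so chosen is not reported here. A ratio against 0 uses 3 counts for that class; where this bound falls on the wrong side of equality it was set to equality. The percent-of-source comparison was added after seeing the data. Intervals were tested on simulated data. Gene positions are from GENCODE.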

Additional observations from a re-analysis of the deposited data

Results flagged for a closer look

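Cells of cluster 15, which gave the mesenchymal tumour cells of late KIC, were also present in libraries that the comparisons of that class did not use, and their levels were above both the epithelial-like level of the library and the limit that a count of 0 allows. In late KPfC 9 such cells had 33.6 CPM of Snai1, 67.2 CPM of Twist1, 61.6 CPM of Zeb1, 67.2 CPM of Zeb2, 95.2 CPM of Prrx1, 106 CPM of Cdh2 and 1740 CPM of Vim. Their counts were small, from 6 UMIs of Snai1 to 19 UMIs of Cdh2 besides Vim. Fibroblast-like cells of late KPfC had 13.0 CPM of Twist1, 56.1 CPM of Prrx1 and 1737 CPM of Vim. Mesenchymal tumour cells of late KIC had 31.5, 7.28 and 6209 CPM in that order. Whether the 9 cells are of the same kind as either class was not tested. In late KPC 1 cell had 1460 CPM of Vim, from 8 UMIs, and in early KIC 1 cell had 2370 CPM of Vim, from 10 UMIs.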

How the results depend on the processing

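The number of the 10 genes at least 2-fold apart was 8 for mesenchymal tumour over epithelial-like cells, 5 for mesenchymal tumour over fibroblast-like cells, 1 each for epithelial-like cells of late KIC over late KPfC and of late KPC over late KPfC, 0 for late over early KIC, 8 for epithelial-like over fibroblast-like cells of late KPfC, and 1 and 3 for fibroblast-like cells of early KIC over normal pancreas and of late KIC over late KPfC. Thinning to 1000 UMIs, which leaves fewer genes with 20 UMIs, gave 2 and 1 for the mesenchymal comparisons, 2 for late KIC over late KPfC, 1 for late over early KIC, 3 for epithelial-like over fibroblast-like cells and 0 for fibroblast-like cells of late KIC over late KPfC. Clustering each library on its own gave 4, 5 and 4 for the comparisons that use epithelial-like cells of late KIC, in the order above, and reversed the log2 ratios of Twist1 (-0.69) and Zeb2 (-0.52) over epithelial-like cells and of Zeb2 in late KIC over late KPfC (1.49). Counting the mesenchymal-cluster cells outside the rule as epithelial-like gave 4 for late KIC over late KPfC and 5 for late over early KIC, and reversed the same ratios (-0.47, -0.44 and 1.47).

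For epithelial-like cells of late KIC over late KPfC and of late KPC over late KPfC, equal weight for every cell gave 2 and 5, leaving out cells that meet the rule gave 2 and 0, and no minimum of 20 UMIs gave 3 and 2. No minimum gave 4 for late over early KIC and 3 for early KIC over normal pancreas. Leaving out cells with leukocyte UMIs gave 2 for late KPC over late KPfC and 2 for early KIC over normal pancreas, as did leaving out the top 10% of UMI counts for the second. The cause was not tested except where stated. The 54 other counts under an alternative were within 1.5 times the main count. With under 30 cells in a class, stricter cell filters, leaving out deep cells or leukocyte UMIs, and the split by sex gave no value for epithelial-like cells of late KIC, nor did leaving out clusters with mesothelial markers for fibroblast-like cells of late KPfC. No paired analysis was possible because each group has 1 library. The 33 epithelial-like cells of late KIC hold 397350 UMIs in all, and each factor there rests on 0 to 2 UMIs.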
